A study of Mus musculus with 8 samples.

Results

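In mouse liver, 6 noncoding genes were read mainly in label-retaining cells, among the 46603 genes of the count table and the 27591 that had a count in any library. They are Panct2, Gm15848, Gm37163, Gm16536, Gm4117 and Gm14636. They were chosen by their counts in these same libraries: each had counts in every library of label-retaining cells, and few or none in the libraries of cells without label. Their difference between the groups is therefore given as a description, with no test. The coding genes around them were not part of that choice, and were tested.

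The data are RNA-seq counts of 8 libraries from 4 mice, named JV602, JV621, JV624 and JV6314, with 1 liver label-retaining cell (LLRC) library and 1 non-LRC library from each mouse. All mice carried a reverse tetracycline transactivator in the broadly active Rosa26 locus (R26rtTA) and an H2B-EGFP transgene, a fluorescent histone that doxycycline induces. They were exposed to doxycycline from birth until postnatal day 5 and were 8 weeks old at the sort, so that the histone label had been diluted in cells that had divided. LLRCs were sorted as EGFP+ EpCAM+ CD45- cells and non-LRC cells as EGFP- EpCAM+ CD45- cells, both from a mixed genetic background. The H2B-EGFP transgene is known to be active without doxycycline in blood cells of the bone marrow, a kind of cell that the CD45- gate is meant to remove.

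Long noncoding RNAs are transcripts that are not translated into protein. An antisense gene lies on the strand opposite a coding gene and can share its promoter region, its introns or its exons, and such transcripts are often low in abundance and restricted to few cell types. The class that the annotation labels TEC holds transcribed stretches with no established gene structure, often within introns. Panct2 belongs to the pluripotency-associated noncoding transcripts, which were named from embryonic stem cells. Little is known of the other five.

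The LLRC libraries held from 7860021 to 9851819 counts in all, and the non-LRC libraries from 4670132 to 8056103. Between 18488 and 20430 genes had a count in the LLRC samples and between 14234 and 18930 in the non-LRC samples. Of the non-LRC libraries, 3 were below each LLRC library in both depth and number of genes. Summed transcripts of 14 cholangiocyte markers stood at 115706 to 222017 CPM (counts put on 1 library size with TMM factors) in LLRC libraries and 66972 to 162874 CPM in non-LRC libraries. Summed endothelial markers stood at 26.9 to 48.2 CPM in LLRC libraries and 147.6 to 534.2 CPM in non-LRC libraries, and stellate and fibroblast markers at 82.3 to 573.3 CPM against 534.7 to 2528 CPM. Hepatocyte markers stood at 2712 to 3247 CPM and 2121 to 6303 CPM, with 1 of 10 higher in LLRCs in the fit. Blood markers summed to 53.6 to 133.8 CPM and 56.5 to 614.3 CPM, with Cd3e, Cd79a and Nkg7 at 0 in all 8 libraries. Ptprc, which encodes the CD45 of the sort gate, went the other way, with more counts in LLRCs (5, 34, 14 and 59 in JV602, JV621, JV624 and JV6314) than in their non-LRC libraries (0, 0, 0 and 7). Of the 16 blood markers, 10 were at 0 in every LLRC library. Among these, Laptm5 had 1, 0, 6 and 1 counts in non-LRC libraries and Coro1a 0, 1, 1 and 0. Csf1r was read in both groups, with 303, 135, 68 and 126 counts in LLRCs and 215, 77, 134 and 67 in non-LRCs. Pancreatic acinar markers reached 1832 CPM in the non-LRC library of JV6314, against at most 2.49 CPM in any other library. The part of these differences in the results was not tested, and in these bulk libraries fewer cells of a type and less RNA per cell cannot be told apart.

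The promoters of the 4 genes matched in the RefSeq table are shown first, since the genes differ in the base composition of their starts, together with that of Slco4c1, the coding gene that begins beside Panct2. Each run holds 250 bases before the RefSeq start and 50 bases after it, on the gene's own strand in GRCm38.p6. The motifs searched on both strands were the TATA box, spelled TATAAA, the CCAAT box and the GC box, spelled GGGCGG. Capitals mark their matches, and a run without capitals holds none. The promoters lie at chr1:96870876-96871175 on the plus strand (Panct2), chr1:130817349-130817648 on the minus strand (Gm15848), chr13:89733447-89733746 on the plus strand (Gm4117), chrX:19237801-19238100 on the minus strand (Gm14636) and chr1:96872122-96872421 on the minus strand (Slco4c1).
Panct2: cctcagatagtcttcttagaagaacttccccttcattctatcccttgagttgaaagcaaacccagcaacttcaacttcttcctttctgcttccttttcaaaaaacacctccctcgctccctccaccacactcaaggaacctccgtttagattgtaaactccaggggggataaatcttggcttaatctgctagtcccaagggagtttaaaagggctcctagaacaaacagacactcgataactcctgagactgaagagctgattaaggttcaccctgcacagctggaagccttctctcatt
Gm15848: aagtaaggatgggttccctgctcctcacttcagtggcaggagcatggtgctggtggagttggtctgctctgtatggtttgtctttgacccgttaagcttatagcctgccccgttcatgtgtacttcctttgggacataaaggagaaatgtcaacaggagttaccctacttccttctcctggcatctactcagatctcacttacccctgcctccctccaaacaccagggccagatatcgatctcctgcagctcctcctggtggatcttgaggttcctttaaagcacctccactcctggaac
Gm4117: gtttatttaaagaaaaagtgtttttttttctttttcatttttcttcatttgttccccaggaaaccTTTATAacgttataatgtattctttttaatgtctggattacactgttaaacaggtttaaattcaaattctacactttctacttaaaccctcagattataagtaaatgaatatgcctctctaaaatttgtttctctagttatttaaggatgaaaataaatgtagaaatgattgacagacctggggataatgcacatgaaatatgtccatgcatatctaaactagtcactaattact
Gm14636: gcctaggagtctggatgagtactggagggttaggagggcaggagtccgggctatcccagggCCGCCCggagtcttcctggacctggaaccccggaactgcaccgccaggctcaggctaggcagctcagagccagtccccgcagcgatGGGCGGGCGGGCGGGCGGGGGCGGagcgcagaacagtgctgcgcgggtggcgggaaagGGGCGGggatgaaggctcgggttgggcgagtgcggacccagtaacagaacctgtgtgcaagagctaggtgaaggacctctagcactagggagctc
Slco4c1: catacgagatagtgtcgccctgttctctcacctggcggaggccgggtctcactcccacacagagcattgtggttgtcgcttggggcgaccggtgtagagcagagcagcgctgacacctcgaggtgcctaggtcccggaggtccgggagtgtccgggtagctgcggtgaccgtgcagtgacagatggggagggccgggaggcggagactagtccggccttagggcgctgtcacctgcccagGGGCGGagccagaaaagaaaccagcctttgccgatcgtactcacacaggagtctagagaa

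The RefSeq window of Gm14636 was the most GC-rich of the 4 noncoding ones, with 67.3% G or C, 20 CpG dinucleotides and 7 matches to the GC box, which can overlap. That of Slco4c1 held 63.0% G or C, 21 CpG dinucleotides and 1 GC box. The promoters of Panct2 (45.7% G or C), Gm15848 (51.3%) and Gm4117 (27.7%) held 3, 3 and 1 CpG dinucleotides, and were below the median of 52.7% G or C over 32851 RefSeq promoters of this length. The observed over expected ratio of CpG was 0.209 for Panct2, 0.154 for Gm15848 and 0.175 for Gm4117, all below the median promoter at 0.384, and 0.623 for Gm14636 and 0.718 for Slco4c1, both above it. A TATA box stood in the promoter of Gm4117 only among these 5, on the reverse strand, and in 13.6% of all promoters, while CCAAT stood in none of the 5 and in 37.4% of all, and the GC box in 35.7% of all. These matches describe the letters of the windows and no bound factor. The windows are those of the RefSeq starts, and annotated starts elsewhere differ from them in composition. Of the 3 Panct2 transcripts in GENCODE M21, 1 begins at the RefSeq start, while the longest (3849 bases) and the shortest begin 1095 and 1107 bases downstream, within the GC-rich window of Slco4c1 and 50 and 62 bases upstream of the start of Slco4c1 on the other strand. The first 150 bases of the longest, shown in the next paragraph, hold 66.7% G or C and 11 CpG dinucleotides. The 2 GENCODE transcripts of Gm4117 begin 5763 and 5767 bases from the RefSeq start, with 64.7% and 66.0% G or C in their first 150 bases. Those of Gm14636 begin 70609 and 70618 bases from its RefSeq start, with 53.3% and 52.0% G or C and 2 CpG dinucleotides each, so that by these starts Gm14636 is lower in G or C than Gm4117 and the longest Panct2 transcript.

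The other pair, Gm16536 and Gm37163, are single-exon genes that lie within coding genes. The first 150 bases of each transcript in GENCODE M21 are given because they place the counted stretch, with those of the longest Panct2 transcript, which runs away from Slco4c1, and no motif was searched in them. Gm16536 begins at chr9:45858357 and Gm37163 at chr1:130728821 of GRCm38, both on the minus strand, and the longest Panct2 transcript at chr1:96872221 on the plus strand.
Panct2 (longest transcript): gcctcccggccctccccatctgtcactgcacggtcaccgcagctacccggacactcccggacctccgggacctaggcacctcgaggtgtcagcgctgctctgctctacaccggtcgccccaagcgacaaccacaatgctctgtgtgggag
Gm16536: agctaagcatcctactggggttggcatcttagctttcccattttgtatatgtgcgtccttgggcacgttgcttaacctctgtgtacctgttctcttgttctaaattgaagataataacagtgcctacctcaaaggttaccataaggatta
Gm37163: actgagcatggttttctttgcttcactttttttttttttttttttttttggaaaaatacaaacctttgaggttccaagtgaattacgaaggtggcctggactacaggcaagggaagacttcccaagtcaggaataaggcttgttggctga

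Panct2 (ENSMUSG00000097814) spans chr1:96871126-96907796 on the plus strand of GRCm38, with 4120 exonic bases in 4 blocks. Counts are given throughout in the order JV602, JV621, JV624 and JV6314, and SE stands for a standard error. For a fitted change it was derived as the absolute log2 fold change over the square root of edgeR's F statistic. Panct2 had 175, 129, 26 and 112 counts in the LLRC samples and 2, 0, 0 and 0 counts in the non-LRC samples. All LLRC libraries stood above all non-LRC libraries, and JV624 was the low LLRC library. The mean over mice was 12.1 ± 5.81 CPM in LLRCs against 0.0623 ± 0.125 CPM in non-LRCs (SD, n = 4 each). The ratio of the summed counts over scaled depth was 155, with a 95% counting interval from 42.7 to 1284 that rests on 2 non-LRC counts, both in JV602, and leaves out the spread between mice. Without that library the non-LRC counts were 0, and LLRCs stood at least 21.6-fold higher than 3 counts in each remaining non-LRC library would give.

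Over all genes with a count, 1.61% stood higher in each LLRC library than in any non-LRC library, and 1.13% stood lower in each. The 6 noncoding genes were picked for this pattern, so their own count of 6 of 6 is set by the choice. The count remained 6 of 6 when CPM were taken without TMM scaling, and 6 of 6 when every library was thinned to the smallest one, where 1.12% of all genes with a count stood higher in each LLRC library. Of the 6 genes, 4 passed edgeR's expression filter and 2, Gm15848 and Gm37163, did not.

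Gm14636 (ENSMUSG00000073274), a processed transcript at chrX:19156981-19167241 on the minus strand with 7009 exonic bases, had 29, 84, 133 and 54 counts in the LLRC samples. Its non-LRC libraries had 3, 0, 0 and 0 counts. Here JV624 was the highest LLRC library and JV602 the lowest. Gm14636 stood at 9.54 ± 7.24 CPM (SD, n = 4) in LLRCs and 0.0935 ± 0.187 CPM in non-LRCs, and the ratio of summed counts over scaled depth was 70.2 (95% counting interval 23.8 to 342). Without the non-LRC library of JV602, which held all 3 non-LRC counts, LLRCs stood at least 17.1-fold higher than 3 counts in each remaining one would give. Without the LLRC library of JV624 the LLRC mean was 6.22 CPM and the ratio 48.6. It is the only one of the 6 whose span overlaps no coding gene.

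Gm4117 (ENSMUSG00000089940), an antisense gene at chr13:89739460-89887166 on the plus strand, had 75, 121, 85 and 127 counts in the LLRC samples and 7, 0, 4 and 0 counts in the non-LRC samples. The LLRC libraries were close to each other, with the highest 1.97 times the lowest in CPM. Its means were 12.0 ± 3.27 CPM in LLRCs against 0.375 ± 0.444 CPM in non-LRCs (SD, n = 4 each), a fitted log2 fold change of 4.84 ± 1.00 (SE), which became 5.61 without the non-LRC library of JV602. Its annotated exons cover 52997 bases, of which 52270 form 1 block, so that per length it was the lowest of the 6, at 0.226 CPM per kb in LLRCs.

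Gm16536 (ENSMUSG00000089810), an antisense gene at chr9:45856769-45858357 on the minus strand, had 112, 98, 56 and 141 counts in the LLRC samples. Its non-LRC libraries had 10, 1, 2 and 0 counts. The groups did not overlap, and the highest LLRC library was 1.90 times the lowest in CPM, the narrowest range of the 6. The means were 11.5 ± 3.06 CPM in LLRCs against 0.442 ± 0.552 CPM in non-LRCs (SD, n = 4 each), a fitted log2 fold change of 4.57 ± 0.91 (SE), which became 5.87 without the non-LRC library of JV602, where 10 of its 13 non-LRC counts lay. With 1589 exonic bases it was the highest of the 6 per length, at 7.26 CPM per kb in LLRCs, against 2.93 for Panct2, 2.04 for Gm15848, 1.94 for Gm37163 and 1.36 for Gm14636.

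Gm37163 (ENSMUSG00000104515), a TEC gene at chr1:130727132-130728821 on the minus strand, had 28, 59, 2 and 29 counts in the LLRC samples and 0 in each non-LRC library. It lies nearest to the edge of the choice, since its 2 counts in JV624 lie under the 3 counts used here as the limit that a count of 0 allows. The LLRC libraries ranged over 23.7 times in CPM. The mean in LLRCs was 3.29 ± 2.75 CPM (SD, n = 4), at least 6.41-fold higher than 3 counts in each non-LRC library would give. Without the LLRC library of JV621 the mean was 2.07 CPM and the bound 4.03-fold.

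Gm15848 (ENSMUSG00000086706), an antisense gene at chr1:130809977-130824084 on the minus strand with 1066 exonic bases in 6 blocks, had the fewest counts. It had 8, 19, 23 and 21 counts in the LLRC samples and 0 in each non-LRC library. The mean in LLRCs was 2.18 ± 1.07 CPM (SD, n = 4), at least 4.24-fold higher than 3 counts in each non-LRC library would give. These bounds cover counting error only.

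**Figure D1:**
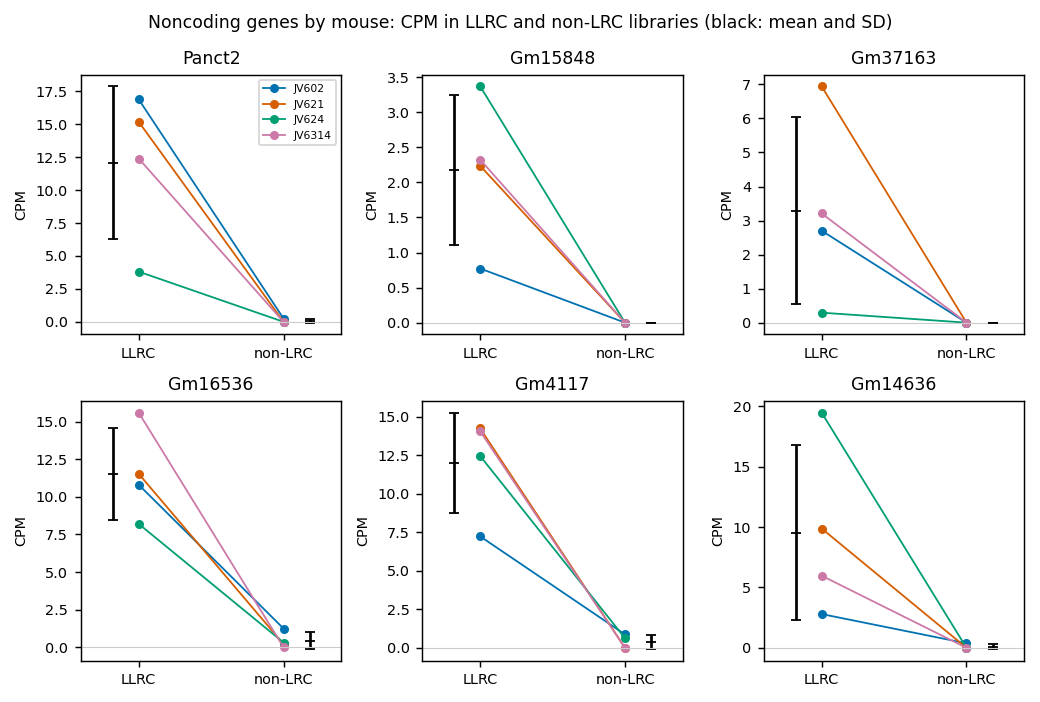
CPM of the 6 noncoding genes (vertical axes, TMM-scaled, 1 panel a gene) in the LLRC and non-LRC libraries, with a line for each mouse and black bars for the mean and SD over 4 libraries. Every line falls from LLRC to non-LRC, and the mouse with the highest LLRC point differs between genes, with JV602 highest for Panct2 and JV624 for Gm14636.

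The 6 genes did not rise and fall together among the LLRC libraries. JV602 was the highest LLRC library for Panct2 and the lowest for Gm15848, Gm4117 and Gm14636. JV624 was the highest for Gm15848 and Gm14636 and the lowest for Panct2, Gm37163 and Gm16536. Summed over the 6 genes, the LLRC libraries were close to each other, at 41.2, 60.0, 47.6 and 53.6 CPM. In the non-LRC libraries the sums were 2.74, 0.208, 0.939 and 0 CPM. JV602 gave the highest non-LRC sum, with counts for 4 of the 6 genes, and the non-LRC library of JV6314, the shallowest of all, had none.

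Gene models of the 6 genes differed between annotations. The outermost start of Panct2, used by 1 of its 3 transcripts, was the same base in GENCODE M21 and RefSeq. RefSeq starts lay 6686 bases from the outermost GENCODE start for Gm15848 and 5763 bases for Gm4117. For Gm14636, RefSeq gives a gene of 81380 bases whose start lies 70609 bases upstream, beside that of the noncoding gene Gm26652. Gm16536 and Gm37163 were not matched in the RefSeq table used here. Counts follow the annotation the authors used, whose release is not given in the sources used here, and lengths follow GENCODE M21.

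**Figure D2:**
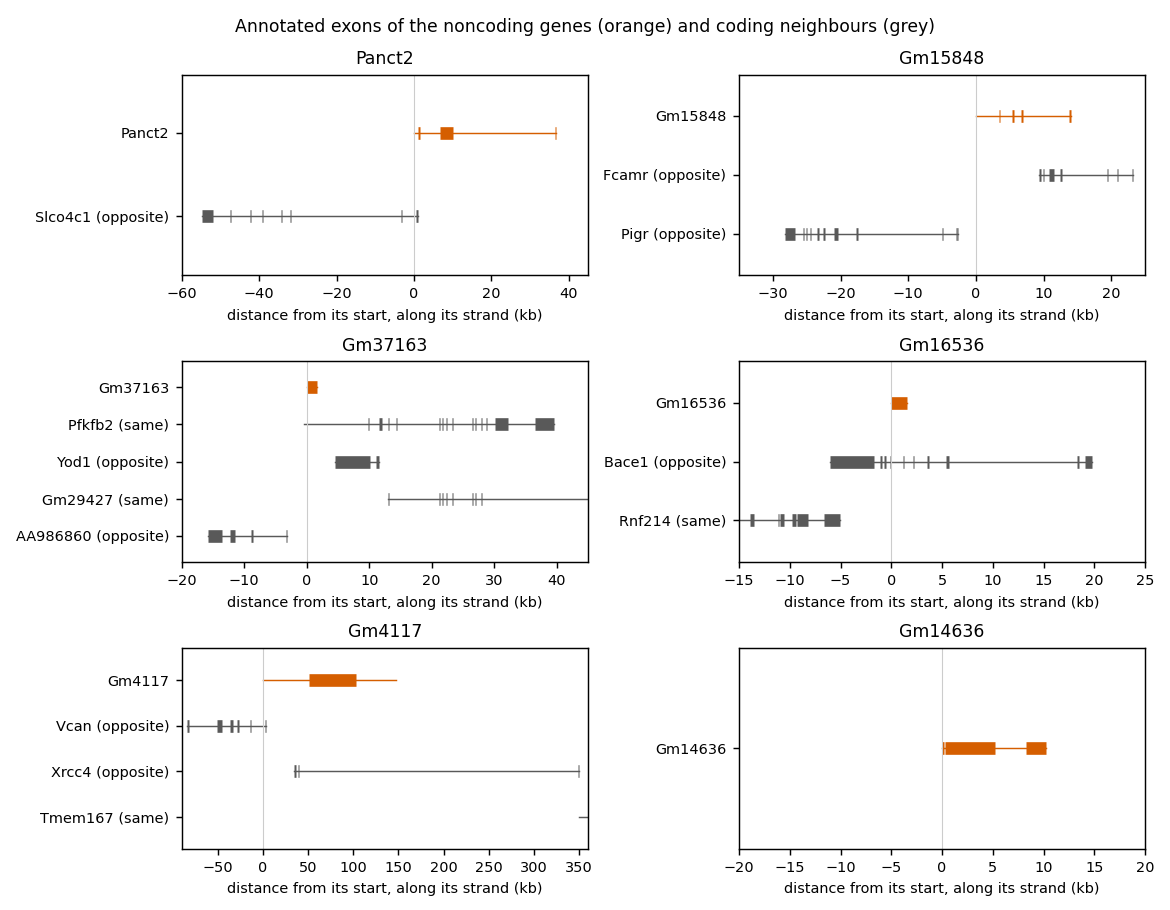
Annotated exons (blocks) and spans (lines) of each noncoding gene in orange and of coding genes near it in grey, against the distance in kb from the noncoding gene's start along its own strand, with "same" and "opposite" for the strand of the coding gene. Gm16536 and Gm37163 lie within Bace1 and Pfkfb2, Gm4117 lies largely within Xrcc4, the outermost starts of Panct2 and Slco4c1 lie within each other's spans, and no coding gene is drawn near Gm14636.

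Of the 6 genes, 5 overlap the span of a coding gene. This is common for such genes: of 2698 antisense, TEC and processed transcript genes with a count, 75.8% overlap one, and of antisense genes alone 91.1%. In 3 of the 6, over 90% of the exonic bases lie in introns of coding genes, namely 100% for Gm37163 and Gm4117 and 91.5% for Gm16536. The question put to the coding neighbours was whether their own counts also differed between LLRCs and non-LRC cells. A neighbour is a coding gene that overlaps the noncoding gene, or one of the nearest 2 on each side.

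Across the 27 coding neighbours, 0 were called at an adjusted p under 0.05. The same test called 0 of 13605 genes in the whole table (0%), with 702 genes (5.16%) at an unadjusted p under 0.05, and among the neighbours that number was 0. Of the 27 neighbours, 16 passed the filter, with 11 positive and 5 negative fitted changes and a median log2 fold change of 0.27, against -0.01 over all genes tested. All 16 had overlapping groups. Of the other 11, 6 had no library over 3 counts. The exact test of edgeR also called 0 of the 16 and DESeq2 0 of the 15 to which it gave an adjusted p, all but Fam174a, with 0 at an unadjusted p under 0.05. By limma-voom 3 and with the mouse as a block 2 of the 16 had an unadjusted p under 0.05, with 0 called. Over all genes the exact test and DESeq2 called 154 and 221 genes, of which 31 and 49 were higher in LLRCs.

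Slco4c1, an organic anion transporter, lies head to head with Panct2 on the opposite strand. The outermost starts of the pair are 1045 bases apart and their spans overlap by 1046 bases, with 131 exonic bases of Panct2 in an intron of Slco4c1 and no shared exon. Slco4c1 had 222, 82, 233 and 121 counts in the LLRC samples and 0, 0, 1 and 93 counts in the non-LRC samples. JV602, JV621 and JV624 differed widely between their libraries, while in JV6314 the CPM was higher in the non-LRC library. The means were 19.6 ± 10.8 CPM in LLRCs against 4.57 ± 9.03 CPM in non-LRCs (SD, n = 4 each), with a log2 fold change of 2.10 ± 1.58 (SE, edgeR adjusted p = 0.9999 by the quasi-likelihood method). An exact two-sided permutation test of log2(CPM + 0.5) that left the pairing by mouse aside gave p = 0.0857, where 0.0286 is the smallest p that 4 against 4 libraries allow. By the same permutation test Pfkfb2 also had p = 0.0857, and Cep164 had the smallest p of the neighbours, 0.0571. For Slco4c1 with labels exchanged only within mice, the exact permutation p was 0.25, where 0.125 is the smallest that 4 pairs allow. The fold of Slco4c1 rests on the non-LRC library of JV6314, the one with the high acinar markers, whose part was not tested. Without it the non-LRC mean fell from 4.57 to 0.0522 CPM on 1 count, the ratio of summed counts over scaled depth was 364 (95% counting interval 65.2 to 14415), and the adjusted p from edgeR was 0.201. The fitted log2 fold change was then 8.16, and it was 6.04 with the mouse as a block.

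Panct2 and Slco4c1 did not keep 1 ratio. In the LLRC libraries Panct2 had 78.8, 157.3, 11.2 and 92.6 counts per 100 counts of Slco4c1. In the non-LRC library of JV6314, Slco4c1 had 93 counts and Panct2 had 0. Among the further neighbours of Panct2, Fam174a had a log2 fold change of -0.69 ± 0.69 (SE) and D1Ertd622e one of -0.09 (SE 0.63), neither past the threshold. St8sia4, a polysialyltransferase, had 16 counts in the LLRC library of JV6314 and 0 elsewhere, and Slco6c1, a transporter of the same family as Slco4c1, had at most 6 counts in any library.

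Xrcc4, a factor of DNA end joining, holds most of Gm4117 in its introns on the opposite strand. Its counts were 659, 533, 784 and 1394 in the LLRC samples and 496, 439, 226 and 139 in the non-LRC samples. The groups overlapped, and the CPM was higher in LLRCs in 3 of 4 mice, with a log2 fold change of 0.87 ± 0.47 (SE, with edgeR adjusted p = 0.9999). Vcan, which encodes the matrix proteoglycan versican and overlaps the start of Gm4117, had 18, 4, 20 and 92 counts in the LLRC samples and 0, 0, 0 and 16 in the non-LRC samples (log2 fold change 2.31, SE 1.58, edgeR adjusted p = 0.9999). This value rests on JV6314: it was 1.15 without its LLRC library, and without its non-LRC library, that of the high acinar markers, LLRCs stood at least 7.84-fold higher than 3 counts in each remaining one would give. With the mouse as a block it was 4.07. Per exonic kb, Vcan stood at 0.265 CPM and Gm4117 at 0.226 CPM in LLRCs. Hapln1, a link protein of matrix, and Tmem167 had log2 fold changes of -0.40 and 0.28, and Edil3, an integrin ligand, had 26 counts in LLRCs of JV621 and at most 2 elsewhere. Atp6ap1l had no count.

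Bace1, the beta-secretase that cleaves the amyloid precursor protein, surrounds Gm16536 on the opposite strand. It had 519, 458, 398 and 355 counts in the LLRC samples and 521, 289, 170 and 211 counts in the non-LRC samples. The means were 50.4 ± 8.14 CPM and 48.2 ± 17.7 CPM (SD, n = 4 each), a log2 fold change of 0.06 ± 0.34 (SE). Per length, Bace1 stood at 7.94 CPM per kb in LLRCs, near the 7.26 CPM per kb of Gm16536. In non-LRC cells Bace1 stood at 7.59 CPM per kb. Gm16536 shares 135 bases, 8.50% of its exon, with exons of Bace1. Cep164, a protein of the centriole's distal appendages, was higher in LLRCs in 4 of 4 mice, with 66, 77, 58 and 44 counts against 39, 9, 35 and 21, but its groups overlapped (log2 fold change 0.81, SE 0.51). Rnf214, with a log2 fold change of 0.53, and Pcsk7, a proprotein convertase, with one of -1.20, had standard errors of 1.01 and 1.09, and Dscaml1 had 2 counts in all.

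Pfkfb2, an enzyme that sets the level of fructose 2,6-bisphosphate, holds Gm37163 in an intron on the same strand. It had 178, 277, 48 and 95 counts in the LLRC samples and 128, 2, 28 and 3 counts in the non-LRC samples. LLRCs were higher in 4 of 4 mice and the groups overlapped, with a log2 fold change of 1.64 ± 1.05 (SE, edgeR adjusted p = 0.9999). It became 3.17 without the non-LRC library of JV602 (edgeR adjusted p = 0.337), 1.11 without the LLRC library of JV621, and 2.47 with the mouse as a block. JV624, the lowest LLRC library for Pfkfb2, was also the lowest for Gm37163. In the non-LRC library of JV602 Pfkfb2 had 128 counts and Gm37163 had 0. Yod1, a deubiquitinase, and AA986860, which flank Gm37163, had log2 fold changes of 0.54 (SE 0.40) and 0.05 (SE 0.48), and Gm29427 had at most 4 counts in any library. By the gene models used here, many exons of Gm29427 coincide with exons of Pfkfb2. In the union mode of the counting, reads in such shared exons go to neither gene, and the effect on both counts was not tested.

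Gm37163 and Gm15848 lie 81.2 kb apart on chromosome 1. Gm15848 is antisense to Fcamr, an Fc receptor for IgA and IgM, which had 1 count in all 8 libraries. The outermost GENCODE start of Gm15848 lies 2.6 kb, and its RefSeq start 9.29 kb, from that of Pigr, the receptor that carries polymeric immunoglobulin across biliary epithelium into bile. Pigr was abundant in both groups, with 5063, 5652, 4269 and 4353 counts in the LLRC samples and 3111, 2631, 3810 and 1808 counts in the non-LRC samples. Its means were 565.2 ± 94.0 CPM and 470.6 ± 118.8 CPM (SD, n = 4 each), a log2 fold change of 0.26 ± 0.27 (SE), higher in LLRCs in 4 of 4 mice with overlapping groups. Fcmr had 2 counts in all.

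The coding genes nearest to Gm14636 lie at least 312 kb away. Kdm6a, a histone demethylase, had a log2 fold change of -0.28 ± 0.62 (SE). Chst7, a sulfotransferase, had 18 counts in the non-LRC library of JV6314, the one with the high acinar markers, 2 in that of JV602 and 0 elsewhere, 4930578C19Rik had 1 count in all, and Tex13c3 had none. Nearer noncoding genes, named after their values were seen, are Mir221 and Mir222, 10.6 and 10.01 kb beyond the end of Gm14636 on the same strand, and Gm26652, 57.5 kb upstream. Mir221 had 3 counts in LLRCs of JV621 and 0 elsewhere, and Mir222 had 0. Gm26652 had 17, 0, 1 and 3 counts in the LLRC samples and 0 in the non-LRC samples, in a different order over mice from Gm14636.

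**Figure D3:**
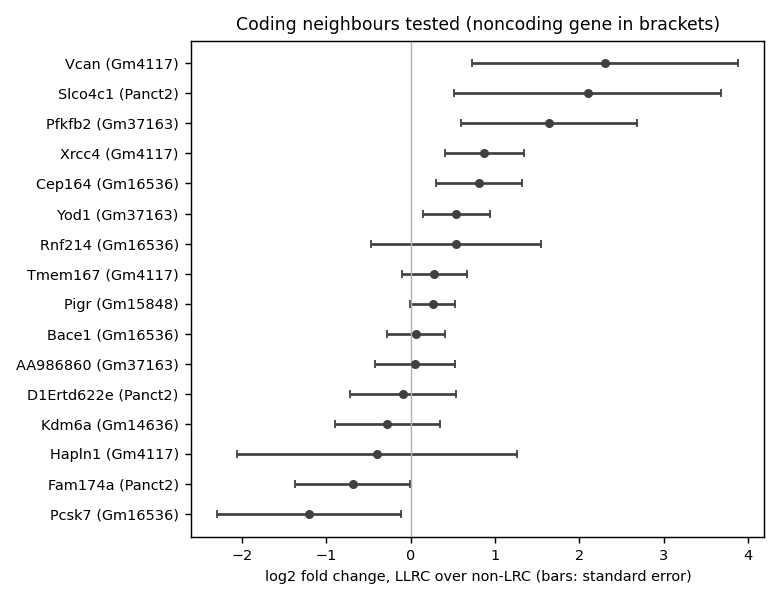
Log2 fold change, LLRC over non-LRC (horizontal axis, bars show the standard error derived from edgeR's F statistic), of the 16 coding neighbours that were tested, each with a noncoding gene it lies nearest to in brackets. Most points lie between -1.20 and 0.87, and the highest 3, Vcan, Slco4c1 and Pfkfb2, have the standard errors 1.58, 1.58 and 1.05.

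Set against the coding gene around it, each of the 3 intronic genes had more counts per 100 counts of the coding gene in LLRCs. This is a ratio of separate counts, and its numerator was chosen for its difference between the groups. Gm16536 had 21.6, 21.4, 14.1 and 39.7 counts per 100 counts of Bace1 in the LLRC samples, and 1.92, 0.346, 1.18 and 0 in the non-LRC samples. Gm4117 had 11.4, 22.7, 10.8 and 9.11 counts per 100 counts of Xrcc4 in LLRCs, and 1.41, 0, 1.77 and 0 in non-LRCs. Gm37163 had 15.7, 21.3, 4.17 and 30.5 counts per 100 counts of Pfkfb2 in LLRCs and 0 in all non-LRC libraries, 2 of which had only 2 and 3 counts of Pfkfb2. The groups did not overlap for any of these 3 ratios, an outcome that the choice of the numerators favours and that is no support for a difference. For Gm37163 a ratio of 0 over 2 or 3 counts of Pfkfb2 carries little information. Reads were counted without strand, so that reads of Gm16536 and Gm4117 and of unspliced RNA of the coding gene on the other strand cannot be told apart. Gm37163 lies on the strand of Pfkfb2, where strand would not separate them either.

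**Figure D4:**
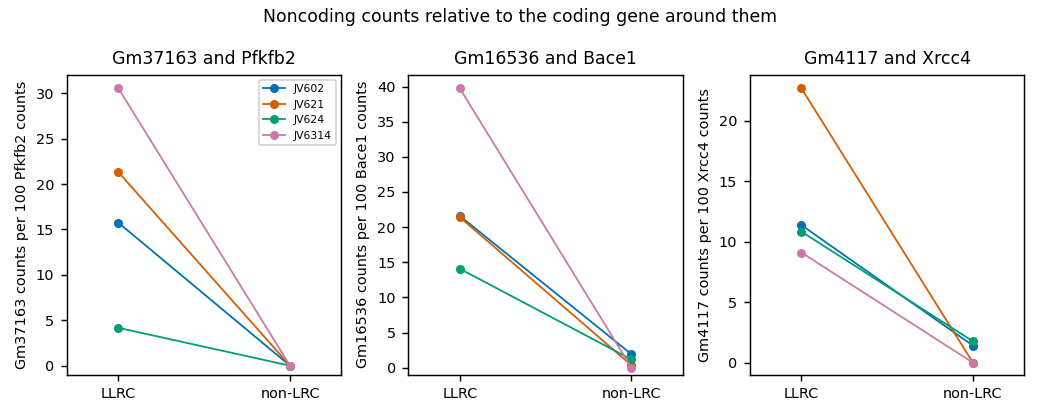
Counts of Gm37163, Gm16536 and Gm4117 per 100 counts of the coding gene around each (vertical axes) in the LLRC and non-LRC libraries, with a line for each mouse. All LLRC points lie above all non-LRC points, the non-LRC points between 0 and 1.92 per 100. The numerators were chosen for their difference between the groups. The non-LRC points of Gm37163 in JV621 and JV6314 rest on only 2 and 3 counts of Pfkfb2.

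Other noncoding genes were described in the same way, with the 6 left out. Among 1291 noncoding genes with over 90% of their exonic bases in introns of coding genes, 21 (1.63%) had all LLRC libraries higher and 1 (0.0775%) had the reverse, beside 1.61% and 1.13% of all genes with a count. The share that was higher is thus that of all genes. After thinning to equal total counts the numbers were 14 and 0. Of the 93 of these that were tested, 66 had a positive fitted change and the median log2 fold change was 0.63. In edgeR's quasi-likelihood test 10 were higher and 0 lower at an unadjusted p under 0.05 (5.16% of all genes tested, in either direction), and 0 had an adjusted p under 0.05. A gene can pass the filter through its LLRC libraries alone, so these numbers may lean towards genes high in LLRCs. After thinning, 485, 569, 420 and 317 of the 1291 genes had a count in the LLRC samples and 384, 145, 373 and 215 in the non-LRC samples, so that the groups overlapped in the number of such genes read and libraries of equal total still differed in how many they held. Their summed CPM also overlapped, at 888.5 to 2160 in LLRCs and 669.8 to 1781 in non-LRCs.

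By annotated type, 18 of 1089 antisense genes (1.65%) had all LLRC libraries higher and 2 (0.184%) had all lower. The TEC genes gave 14 and 2 of 1188, the processed transcripts 8 and 2 of 421, and the lincRNAs 10 and 2 of 1412. Sense intronic genes gave 6 and 0 of 135. Coding genes gave 323 and 258 of 17207 before thinning, and 215 and 254 after it. After thinning antisense genes gave 11 and 1, TEC genes 7 and 2, processed transcripts 4 and 1, lincRNAs 6 and 3, and sense intronic genes 4 and 0. Other types went the other way, with 4 and 15 of 833 unprocessed pseudogenes and 0 and 5 of 115 transcribed unprocessed pseudogenes at full depth. Median log2 fold changes were 0.47 for the 78 antisense genes tested, 0.27 for 85 TEC genes, 0.28 for 115 lincRNAs, 0.04 for 92 processed transcripts and -0.02 for coding genes, with 0 called in each type. These medians cover only genes that passed the filter, which the LLRC libraries alone can satisfy.

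**Figure D5:**
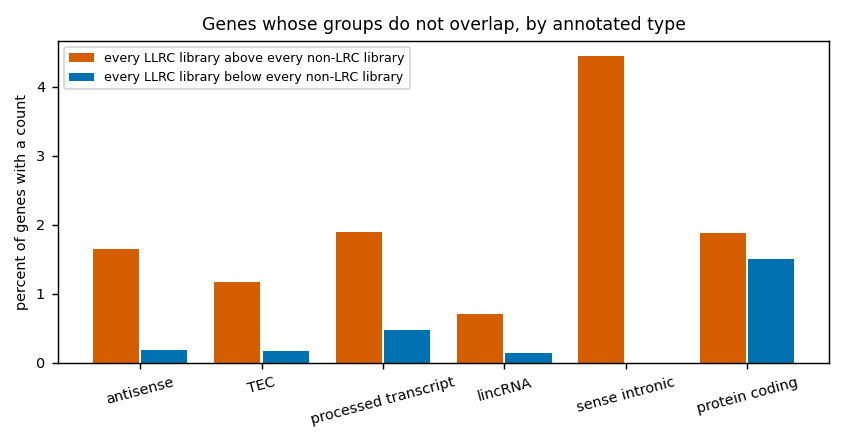
Percent of genes with a count (vertical axis) whose 4 LLRC libraries all lie above (orange) or all below (blue) the 4 non-LRC libraries, by annotated type, at full depth and without the 6 genes. The orange bar is the taller one in the 6 types drawn, by 1.65% against 0.184% for antisense genes and 1.88% against 1.499% for coding genes, which turn to 215 higher against 254 lower after thinning. Unprocessed pseudogenes, with more genes lower, are not drawn.

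Well-known long noncoding RNAs were set beside the 6 genes. Of 60 listed, 53 were in the table and 26 were tested, with 11 positive and 15 negative fitted changes, a median log2 fold change of -0.08 and 0 called in edgeR's test. Epb41l4aos had a log2 fold change of 1.56 ± 0.66 (SE) with an adjusted p of 0.937 in that test, and was the only one with an unadjusted p under 0.05. The nuclear RNA Malat1 stood at 11556 ± 8768 CPM in LLRCs against 7114 ± 3379 CPM in non-LRCs (SD, n = 4 each). Airn, the antisense transcript of the imprinted Igf2r locus, had a log2 fold change of 1.73 ± 1.23 (SE), Neat1, the RNA that builds paraspeckles, one of -1.20 (SE 0.63), Dleu2 one of -0.92 and Tug1 one of -0.03.

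Pluripotency genes were set beside Panct2 because of its name. Of 30 listed, 29 were in the table, 15 of them with no library over 3 counts, and 11 were tested, 5 with a positive and 6 with a negative fitted change, a median log2 fold change of -0.18 and 0 called. Klf2, a Krüppel-like factor that endothelium also expresses, had a log2 fold change of -2.32 ± 0.77 (SE) with an adjusted p of 0.688 from edgeR, and was the only one with an unadjusted p under 0.05. The 9 endothelial markers tested had a median log2 fold change of -3.69, and their part in the value of Klf2 was not tested. Lefty1, an inhibitor of Nodal, had one of -0.96, Tcf3 one of 0.67, Tfcp2l1 one of 0.65, Nr5a2, a nuclear receptor of liver and pancreas, one of 0.41, and Rif1 one of -0.32. The symbol Tcf3 is that of E2A, while the stem cell factor formerly called Tcf3 is Tcf7l1, which was not listed. E2A is thus counted among the 11 tested and the 5 with a positive change.

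The genes with levels most like those of the 6 were sought among the 13601 tested genes other than the 6, by the mean absolute difference of log2(CPM + 0.5) over the 8 libraries. The 6 were chosen by their counts in these same libraries. A gene close to them is therefore bound to be read in LLRCs and low in non-LRC cells, and the likeness is a description only. The genes found were all coding, as were 11411 of the 13605 genes tested. Between the 6 themselves, Gm16536 and Gm4117 were the closest of the 15 pairs (0.36), closer than Mas1 and Pclo to Gm16536 and than Hepacam2 to Gm4117, and the next pair was Panct2 and Gm16536 (0.60). For Panct2 they were the opioid receptor gene Oprk1 (0.36) and the angiotensin peptide receptor gene Mas1 (0.47). Oprk1 had 51, 139, 32 and 171 counts in the LLRC samples and 1, 0, 0 and 0 in the non-LRC samples. For Gm15848 and Gm37163 they were the chemokine gene Cxcl10 (0.20 and 0.49) and the kinase gene Pbk (0.24 and 0.47), for Gm16536 Mas1 (0.49) and the synaptic scaffold gene Pclo (0.49), for Gm4117 Pclo (0.35) and Hepacam2 (0.50), and for Gm14636 Tmc7 (0.34) and Spdya (0.41). Tmc7 had 50, 96, 55 and 53 counts in the LLRC samples and 2, 0, 1 and 0 in the non-LRC samples.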

How the data were processed

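RNA from the sorted cells was extracted with a PicoPure kit. The authors deposited raw counts per gene from HTSeq 0.5.3p9, run on exons of the GRCm38.p4 annotation in its union mode and ignoring strand. The aligner and its version are not given in the sources used here. Their table of edgeR results, with log2 fold changes, mean log2 abundance, p-values and adjusted p-values, was not used.

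Groups and mice were taken from the sample labels. The 6 genes and all gene lists were chosen with earlier results of these data known. Types and coordinates came from GENCODE M21 (GRCm38) for 46091 of 46603 identifiers, and 512 had no match. CPM are counts scaled to a common library size by TMM (factors 0.816 to 1.23). Of all genes, 13605 passed filterByExpr and were tested by edgeR 4.0.16's quasi-likelihood test in R 4.3.3, with group as the only term and Benjamini-Hochberg adjustment over all genes tested at 0.05. DESeq2 1.42.0, limma 3.58.1, other filters and scalings, thinned counts, the mouse as a block and leaving out each library were alternatives. A floor of 3 counts was 0.289 to 0.440 CPM in LLRC and 0.374 to 0.623 CPM in non-LRC libraries, and intervals cover counting error only. The description of other intronic noncoding genes was added after the data were seen.

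The libraries of a mouse come from 1 animal, so the labels pair them. After group means were removed, the correlation over 13605 genes between both libraries of a mouse was 0.0961 (JV602), 0.0737 (JV621), 0.00334 (JV624) and 0.171 (JV6314). The named genes are the 6, their coding neighbours, from each list those past the threshold or else the 2 with the largest and the 2 with the smallest log2 fold change and the 2 with the highest CPM, and for each of the 6 the 2 genes most like it.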

Additional observations from a re-analysis of the deposited data

Results flagged for a closer look

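Of 45 groups of 4 libraries examined among the 6 genes and their coding neighbours, 8 held 1 library far from the other 3. Chance gives about 1 in 20 for spread-out values, a rate that does not apply to sparse counts, and in 4 of the 8 (St8sia4, Slco6c1, Gm29427 and Vcan) the other 3 libraries were at 0. Groups with no library over 3 counts were not examined, which left out the non-LRC counts of Panct2 and Gm14636, also held by 1 library each. Slco4c1 stood at 18.1 CPM in the non-LRC library of JV6314, against at most 0.156 CPM in the other non-LRC libraries. The same library, which also held the acinar markers at 1832 CPM, stood apart for Vcan at 3.12 CPM and Chst7 at 3.51 CPM. Fam174a stood at 497.8 CPM in the non-LRC library of JV621, against at most 90.7 CPM in the others. Slco6c1 stood at 0.748 CPM and Gm29427 at 0.499 CPM in the non-LRC library of JV602, on 6 and 4 counts. Among LLRC libraries, St8sia4 stood at 1.77 CPM in JV6314 and Edil3 at 3.06 CPM in JV621. Causes were not tested.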

How the results depend on the processing

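The count of the 6 genes with no overlap between groups was 6 with TMM, with library size alone and after thinning, a count that the choice of the genes sets (1.61% of all genes with a count with TMM, 1.12% after thinning). Coding neighbours, known long noncoding RNAs and pluripotency genes called were 0 in each alternative, leaving out each library in turn included (0 to 0), and for 33 tested coding genes within 500 kb (5 at an unadjusted p under 0.05, beside 5.16% of all genes tested). Over all genes, 0 calls became 11 with no filter beyond 1 count, 221 by DESeq2 and 154 by edgeR's exact test. Leaving out 1 library gave 0 to 6 calls, with the 6 found without the non-LRC library of JV602. The cause was not tested. With the mouse as a replicate block, since both libraries of a mouse share an animal, 0 genes were called and 569 had an unadjusted p under 0.05, and no call changed. Fitted changes of the uncalled neighbours AA986860, Bace1, D1Ertd622e, Fam174a, Hapln1 and Kdm6a turned sign in at least 1 alternative. Without the non-LRC library of JV621, Fam174a stood at 0.62, D1Ertd622e at 0.65, Kdm6a at 0.57 and Pcsk7 at -0.58 on the log2 scale, and without that of JV602 Hapln1 stood at 0.24 and Rnf214 at 1.19, none called. Without the LLRC library of JV621 Hapln1 stood at -1.58. The depth of the non-LRC libraries limits what 0 counts of Gm15848 and Gm37163 can show.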
